A study of Arabidopsis thaliana with 30 samples.

Results

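Histones are the proteins that package DNA, and their messenger RNAs were followed here through the auxin response of the Arabidopsis thaliana root. The 47 loci considered encode the linker histone H1 (3 loci) and the core histones H2A (13), H2B (11), H3 (12) and H4 (8). A probe set was taken as a histone probe set if the platform annotation pairs it with at least 1 of these loci and with no gene outside them. This gave 30 of 22746 probe sets: 3 for H1, 10 for H2B, 12 for H3 and 5 for H4. They cover 32 of the 47 loci. The other 15 loci, which include all 13 H2A loci, AT3G45980 (H2B) and AT5G65350 (H3), are paired with no probe set and were not analysed here, so nothing below concerns H2A.

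Core histones form the nucleosome around which DNA is wound, and H1 binds the DNA between nucleosomes. Most core histone genes are read mainly in S phase, when new DNA has to be packaged. H3 exists as the replicative form H3.1, placed behind the replication fork, and as the variant H3.3, placed also outside S phase and typically found over transcribed genes. Auxin, whose main natural form is indole-3-acetic acid (IAA), is known for starting cell divisions in the root, such as those of the pericycle that found lateral roots.

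All plants were Col-0 seedlings, 1 week old, given either IAA at 5 µM or solvent alone (mock) for 2 h. The stele came from the line pWOL::GFP, the xylem-pole pericycle from the enhancer trap line E3754, the epidermis with the lateral root cap from pWER::GFP and the columella from the enhancer trap line PET111. Each tissue is therefore the set of cells in which 1 reporter line fluoresced. Roots were digested for 1 h before sorting, and for the auxin samples the digestion medium also held IAA at 5 µM. Intact roots were not digested. Each of these 5 sample types had 3 mock and 3 auxin arrays, which makes 10 groups and 30 arrays. Whether the 3 arrays of a group came from separate cultures is not stated, so p-values measure the spread between these arrays, which may be technical.

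On every array the mean signal was 250.0 after trimming, and the median signal of an array was between 54.4 and 82.9. Within groups, arrays correlated at r = 0.924 to 0.978 across probe sets, which are not independent replicates. Columella mock array 1 was the only array whose closest match, an epidermis mock array, lay outside its own group, and no histone probe set was called in the columella with or without it. Of the fixed tissue markers, none of 8 for the stele and none of 5 for the root cap had a probe set named here, so these labels could not be checked. LBD16, which alone of 3 pericycle markers was named, had mock signals of 102 to 265 in the pericycle and of 33.2 to 83.7 in the stele. After auxin it did not set the pericycle (467 to 564) apart from the stele (350 to 679). The 2 of 6 epidermal markers named, EXPA7 and EXPA18, summed to 508 to 708 in mock epidermis and to at most 395 in the other mock sorted tissues. On the auxin arrays they did not set the epidermis apart, with sums of 29.9 to 55.1 there and of 11.5 to 62.5 in the other sorted tissues.

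Of the 30 histone probe sets, 16 are paired with 1 locus and 14 with several. For the latter the annotation does not tell which of the genes each detects. Among them 262979_s_at, 247692_s_at, 252562_s_at and 261408_s_at carry the suffix of probe sets that can detect several transcripts. The others do not, so probe sets paired with the same loci may detect different genes. All 5 H3.1 probe sets are paired with the same 5 loci (AT1G09200, AT3G27360, AT5G10390, AT5G10400 and AT5G65360), and all 3 H3.3 probe sets with AT4G40030, AT4G40040 and AT5G10980. All 5 H4 probe sets are paired with all 8 H4 loci. These probe sets are named below by their probe set number, and they are counted neither as separate genes nor as replicates of a condition. Signals of different probe sets are not compared as levels. In all, 26 histone probe sets (2 for H1, 9 for H2B, 10 for H3, 5 for H4) exceeded the 40th percentile of their array on at least 3 of 30 arrays and were tested among 17000 probe sets. A probe set was called at a Benjamini-Hochberg adjusted p under 0.05 in a limma fit of log2(signal + 16) over all 30 arrays. Changes are given on that log2 scale with the standard error (SE) of the fit, and such a change understates that of a dim probe set.

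How the histone genes respond to auxin in each part of the root was asked first. In the stele most of the histone probe sets that were called rose: 9 of 26 probe sets were called higher and 2 lower (42.3%), where 14.2% of all 17000 probe sets were called higher and 11.5% lower (25.7% in all). The median change of the 26 was 0.49, against 0.11 over all probe sets, and 22 of the 26 lay above 0. In the pericycle 1 was called higher and 1 lower, against 7.18% and 6.51% of all probe sets (13.7% in all). In the epidermis 1 was called higher and none lower, against 6.28% and 7.73% of all (14% in all). None was called in the columella, where 8.05% of all were, and none in intact roots, where 13.7% were; at an unadjusted p under 0.05 in the same limma fit the counts were 0 and 1. The plot of changes by sample type shows the shift to the right in the stele panel. The stele had the largest absolute change of the 4 sorted tissues for 15 of 26 probe sets. Over all probe sets, too, the stele had the highest share of calls (25.7%). Mock and auxin arrays of the stele did not overlap for 16 of 26, against 41.8% of all probe sets. Of the 26, 15 were called in no sample type, 8 in the stele only and 3 in the stele and another tissue. No share over all probe sets is given for these counts, the counts at an unadjusted p, the largest changes or the 22 above 0. They are therefore not read as a trait of histones.

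**Figure D1:**
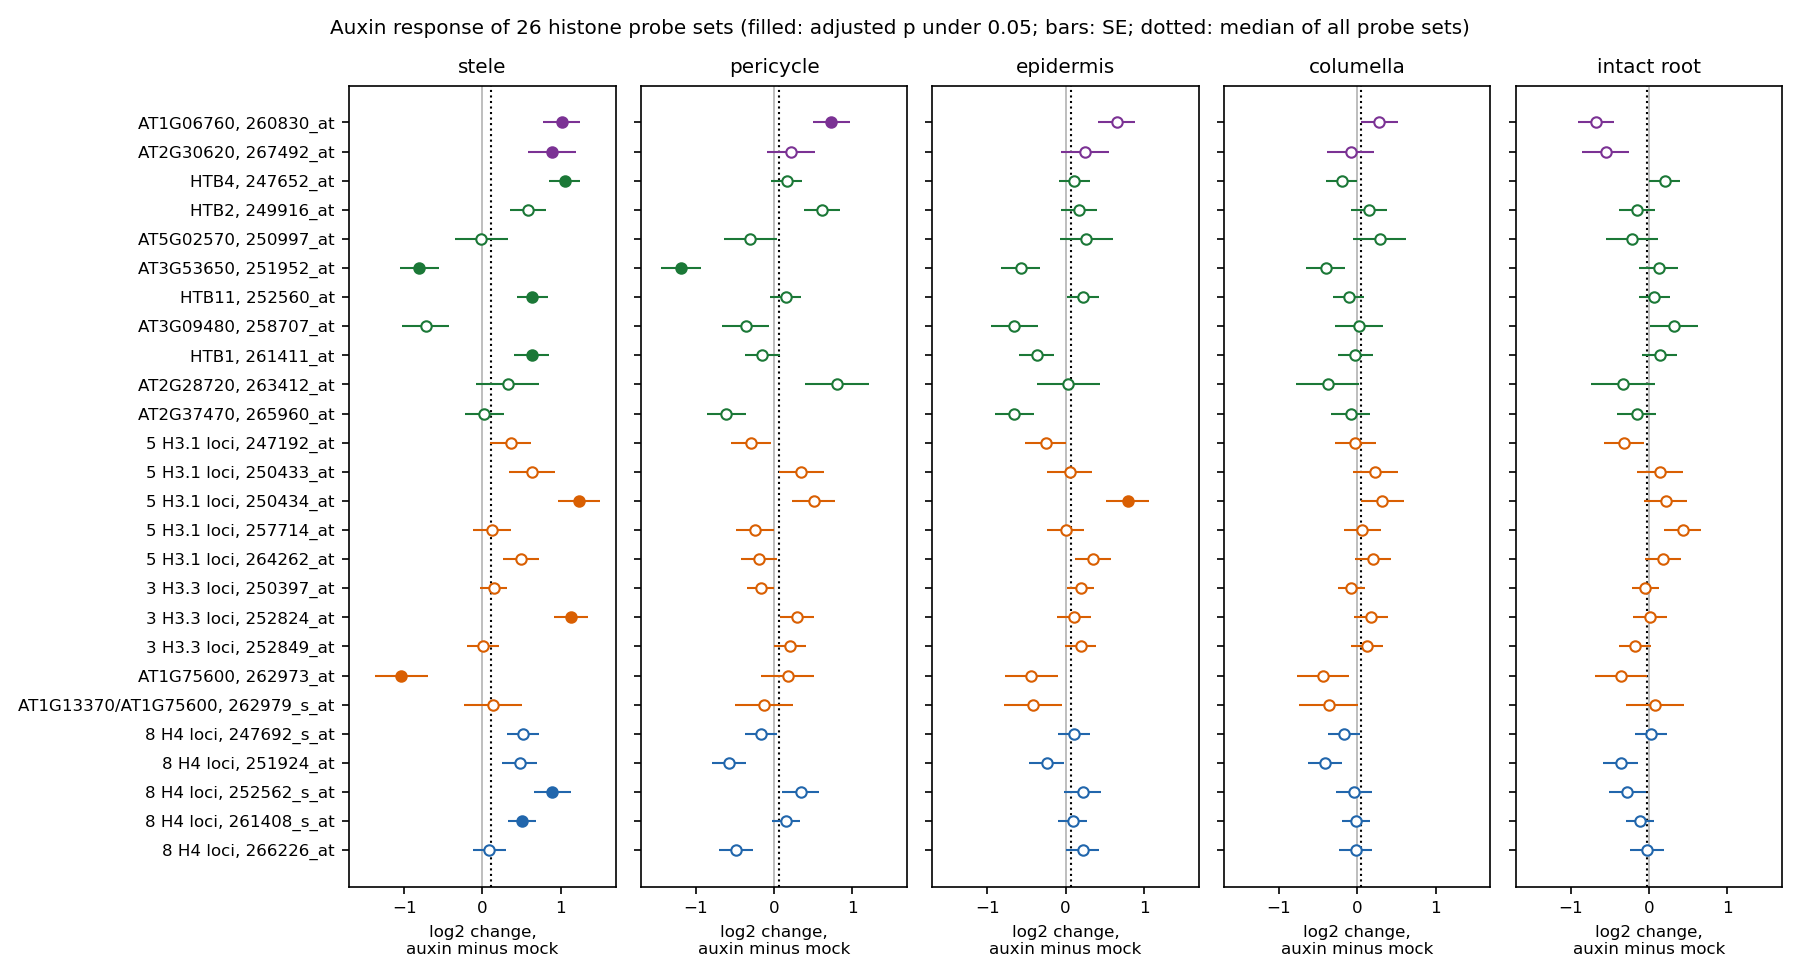
Log2 change after auxin of the 26 tested histone probe sets in the 5 sample types; points are colored by class (H1 purple, H2B green, H3 orange, H4 blue), filled where called, with SE bars, and the dotted line is the median of all 17000 probe sets. In the stele 11 points are filled, in the pericycle 2, in the epidermis 1, and in the columella and intact roots none.

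The counts depended on single arrays. With 1 of the 6 stele arrays left out, 5 to 10 of 26 were called. Without stele mock array 1 the 5 called (all higher) were 19.2% of the histone probe sets, against 17.6% of all probe sets. Without stele auxin array 2 the 7 called were 26.9%, against 16.8%. In the pericycle the 2 calls became 1 without mock array 1 or 2 or auxin array 1, became 4 (all lower) without auxin array 2 and became 4 (3 higher) without auxin array 3. For the other counts with an array left out no share over all probe sets is given. In bulk samples such as these, a change in the share of cells that hold a transcript and a change in the amount per cell cannot be told apart.

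**Figure D2:**
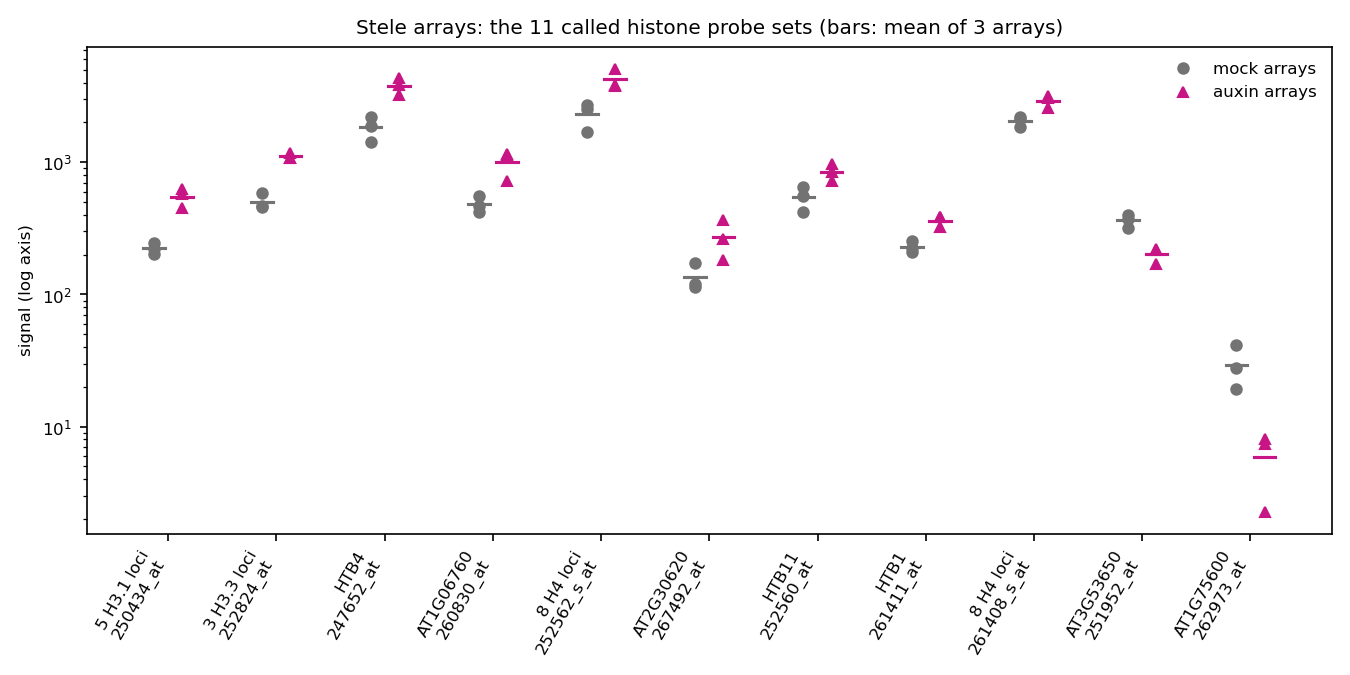
Signals on the 3 mock (grey circles) and 3 auxin (magenta triangles) stele arrays of the 11 histone probe sets called there, on a log axis, with bars at the means. In each of the 11, which were chosen by their call, the mock and auxin arrays do not overlap; 9 are higher after auxin and AT3G53650 and AT1G75600 are lower.

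Both tested linker histone genes, AT1G06760 (H1.1) and AT2G30620 (H1.2), rose in the stele. AT1G06760 gave stele signals of 467, 424 and 553 after mock treatment and of 1158, 1136 and 717 after auxin. All auxin arrays lay above all mock arrays, and the change was 1.01 ± 0.24 (adjusted p = 0.00171). AT2G30620 went from 173, 114 and 120.3 to 183, 365 and 262 in the stele. Its lowest auxin array lay only a little above its highest mock array, and the change of 0.89 ± 0.30 (adjusted p = 0.0282) was no longer called when stele mock array 2 or 3 or stele auxin array 2 or 3 was left out.

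AT1G06760 also rose in the pericycle, where its signals were 383, 357 and 716 in mock and 858, 831 and 653 in auxin arrays. The third mock array overlapped the auxin arrays there. The change was 0.73 ± 0.24 (adjusted p = 0.035), and it lost its call without pericycle mock array 1 or 2 or auxin array 1 or 2, without the intensity trend and with only the arrays of the pericycle. In the epidermis the gene went from 491, 645 and 667 to 891, 959 and 992. These groups did not overlap, but the change of 0.65 ± 0.24 was not called (adjusted p = 0.0593). It was called there after centring on the 75th percentile, with array weights, with a replicate block and with only the compared arrays. In the columella the change was 0.28 ± 0.24 (adjusted p = 0.573). Over the 4 sorted tissues together AT1G06760 rose by 0.67 ± 0.12 (adjusted p = 2.12e-05).

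In intact roots the values of both H1 genes ran the other way without passing the test. After quantile normalization 1 of them was called lower there. AT1G06760 had signals of 1821, 2214 and 2627 in mock and 1103, 1472 and 1583 in auxin-treated intact roots. The groups did not overlap, with auxin below mock, and the change was -0.67 ± 0.24 (adjusted p = 0.0511). AT2G30620 went from 1079.8, 1189 and 1341 to 906, 775 and 763, again without overlap, a change of -0.55 ± 0.30 (adjusted p = 0.279). The plot of 4 probe sets over all arrays shows the mock arrays of intact roots above all sorted arrays for both H1 genes.

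**Figure D3:**
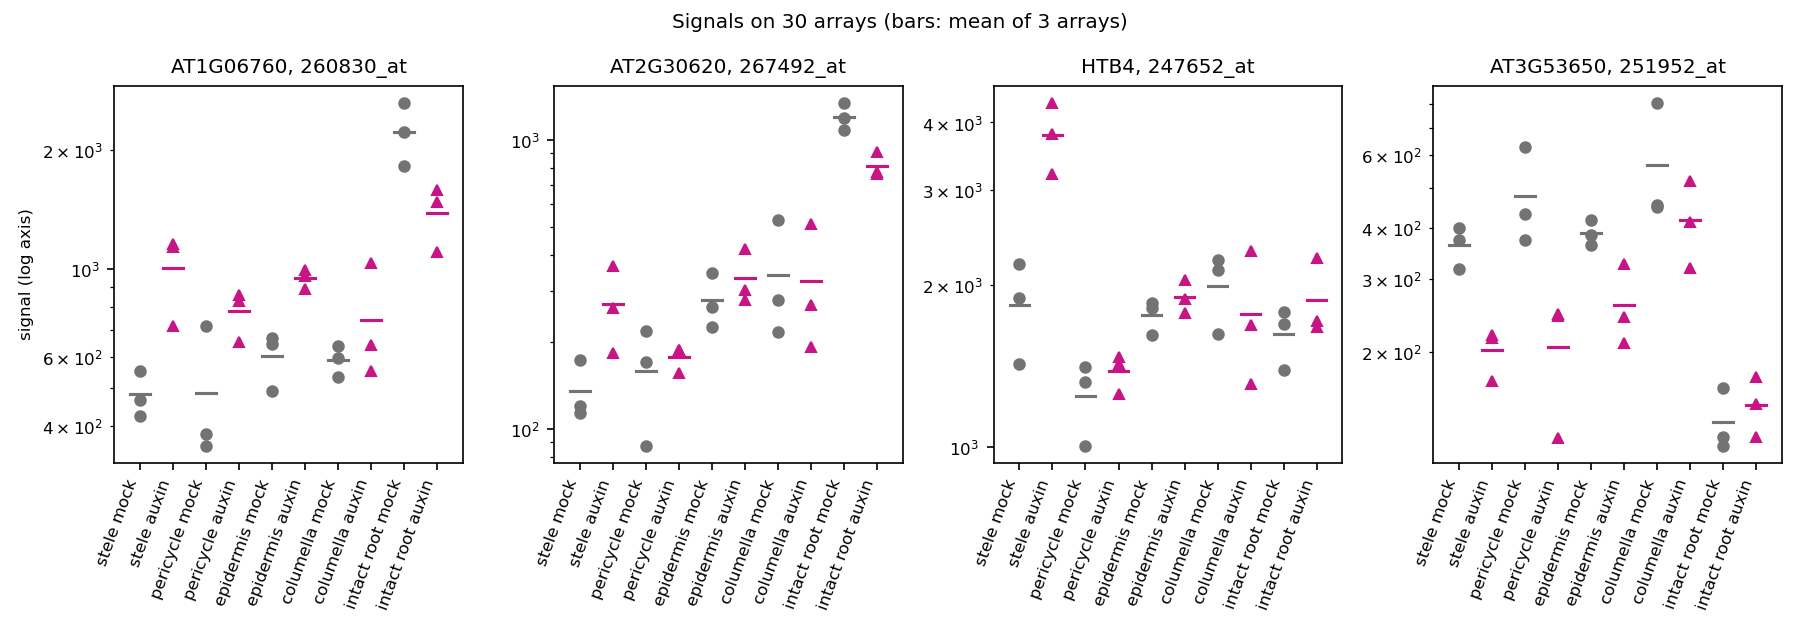
Signals on all 30 arrays (log axis) of the linker histone genes AT1G06760 and AT2G30620 and the H2B genes HTB4 and AT3G53650, by sample type and treatment, with bars at the means of 3 arrays. The stele auxin arrays of HTB4 stand above all its other arrays, and the auxin arrays of AT3G53650 lie below its mock arrays in the stele, pericycle and epidermis.

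The H2B genes split in direction. In the stele 3 of 9 were called higher, 1 lower and 5 in neither direction, with a median change of 0.32. HTB4 (AT5G59910) had stele signals of 1422, 1891 and 2182 in mock and 3209, 3806 and 4349 in auxin arrays. The auxin arrays lay well above the mock arrays, a change of 1.05 ± 0.20 (2.07-fold, adjusted p = 1.48e-04) that stayed called with any of the 6 arrays left out. HTB11 (AT3G46030) gave 418, 652 and 556 in mock and 719, 972 and 846 in auxin-treated stele. HTB1 (AT1G07790) gave 225, 208 and 252 in mock and 383, 383 and 321 in auxin arrays. Neither gene overlapped between the groups; the changes were 0.64 ± 0.20 (adjusted p = 0.0169) and 0.63 ± 0.22 (adjusted p = 0.0328). The call of HTB11 was lost without stele mock array 1 or auxin array 2, and that of HTB1 without mock array 1 or 2 or auxin array 1 or 2 and after centring on the 75th percentile. HTB1 was not called in the epidermis, where its 3 auxin arrays (180.4, 168 and 167) lay below its 3 mock arrays (193, 235 and 258).

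AT3G53650 was the H2B gene that fell. In the stele its signals were 398, 318 and 374 in mock and 215, 169.8 and 220.1 in auxin arrays. In the pericycle the mock arrays gave 373, 431 and 629 and the auxin arrays 124, 247 and 244. The groups did not overlap in either tissue, and the changes were -0.80 ± 0.25 (adjusted p = 0.0171) and -1.19 ± 0.25 (adjusted p = 0.00123). The stele call was lost without mock array 1 or auxin array 2, whereas the pericycle call held with any of its 6 arrays left out. In the epidermis the auxin arrays (209.5, 243 and 326) also lay below the mock arrays (363, 419 and 384), but the change of -0.57 ± 0.25 was not called (adjusted p = 0.135). Columella signals were 804, 455 and 449 in mock and 521, 413 and 320.0 in auxin arrays. These overlapped, with a change of -0.40 ± 0.25 (adjusted p = 0.406).

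Over the 4 sorted tissues together, 10 of 26 histone probe sets were called, 6 higher and 4 lower, against 42.2% of all probe sets (24.7% higher and 17.5% lower), so the histone share of 38.5% was close to the background. Among the H2B genes, HTB4 (0.28) and HTB2 (AT5G22880, 0.38) rose on average, and AT3G53650 (-0.74), AT3G09480 (-0.43) and AT2G37470 (-0.33) fell. HTB2 was called in no single tissue, where its changes ranged from 0.15 in the columella to 0.61 in the pericycle. AT3G09480 was likewise called in no single tissue; its changes were -0.73 in the stele, -0.36 in the pericycle, -0.66 in the epidermis and 0.02 in the columella. AT2G37470 had changes of -0.66 in the epidermis, -0.61 in the pericycle and 0.02 in the stele, none of them called. The average call of HTB4 was lost without stele mock array 1 or columella auxin array 1, that of AT3G09480 without 1 of 3 arrays (stele auxin 3, pericycle mock 3 or columella mock 1) and that of AT2G37470 when any 1 of 9 of the 24 sorted arrays was left out.

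The replicative H3.1 genes gave unequal answers on their 5 probe sets. In the stele all 5 changes were above 0, from 0.12 to 1.23 with a median of 0.50, and 1 was called. That probe set, 250434_at, had stele signals of 222, 245 and 203 in mock and 623, 572 and 453 in auxin arrays. Every auxin array lay above every mock array; the change was 1.23 ± 0.27 (adjusted p = 9.54e-04), and it stayed called with any of the 6 arrays left out. For 250433_at the values were 199, 202 and 179 in mock and 286, 338 and 303 in auxin-treated stele, without overlap and not called (0.63 ± 0.29, adjusted p = 0.101). For 264262_at they were 298, 262 and 318 in mock and 419.8, 405 and 431 after auxin, also without overlap and not called (0.50 ± 0.23, adjusted p = 0.106). The stele groups of 257714_at overlapped (366, 319 and 352 in mock, 348, 419 and 368 in auxin arrays). The probe set 247192_at gave 1065, 1040.2 and 925 in mock and 1287, 1511 and 1131 in auxin-treated stele, with no overlap and a change of 0.36 ± 0.26 (adjusted p = 0.316).

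The same probe set, 250434_at, was the only histone probe set called in the epidermis. Its epidermal signals were 117, 162 and 197 in mock and 259, 269.8 and 316 in auxin arrays, with all auxin arrays higher. The change of 0.79 ± 0.27 (adjusted p = 0.0453) lost its call when epidermis mock array 1 or 2 or any of the 3 auxin arrays was left out. It was also lost with a pseudocount of 1, no filter on low signal, quantile normalization, array weights or no intensity trend. In the pericycle it gave 169, 141 and 172 in mock and 180.0, 348 and 202 in auxin arrays, with 1 auxin array far above the others, and was not called (0.50 ± 0.27, adjusted p = 0.22). Over the 4 sorted tissues it rose by 0.71 ± 0.14 (adjusted p = 6.37e-05), while the other 4 H3.1 probe sets were not called and had average changes of -0.05 to 0.32.

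Among the 3 probe sets of the H3.3 genes, 252824_at rose in the stele and the other 2 did not pass the test. Signals of 252824_at were 580.5, 471 and 461 in mock and 1177, 1083 and 1081 in auxin-treated stele. The auxin arrays were close together and all above the mock arrays; the change was 1.13 ± 0.22 (adjusted p = 2.05e-04) and stayed called with any of the 6 arrays left out. Signals of 252849_at were 1566, 1128 and 1399 in mock and 1549.9, 1328 and 1226 in auxin arrays, which overlapped (0.01 ± 0.20). The probe set 250397_at overlapped as well, with 3276, 2994 and 3097 in mock and 3707, 3153 and 3502 in auxin-treated stele (0.14 ± 0.17). In the other sorted tissues the 3 probe sets had changes of -0.17 to 0.30, none of them called.

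A further 2 H3 loci, AT1G13370 and AT1G75600, share the probe set 262979_s_at, and each also has 1 of its own. The own probe set of AT1G75600, 262973_at, was the only H3 probe set to fall in the stele, from 41.2, 19.2 and 28.0 to 7.45, 8.02 and 2.28. The signals were low in both groups and did not overlap; the change was -1.03 ± 0.33 (adjusted p = 0.0209). It lost its call without stele mock array 1 or auxin array 3 and with a pseudocount of 64, and its size depends on the pseudocount (-2.21 with 1, -0.41 with 64). On the shared probe set the stele signals overlapped, at 111, 93.1 and 69.0 in mock and 151, 71.7 and 90.6 in auxin arrays (0.13 ± 0.37, adjusted p = 0.824).

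**Figure D4:**
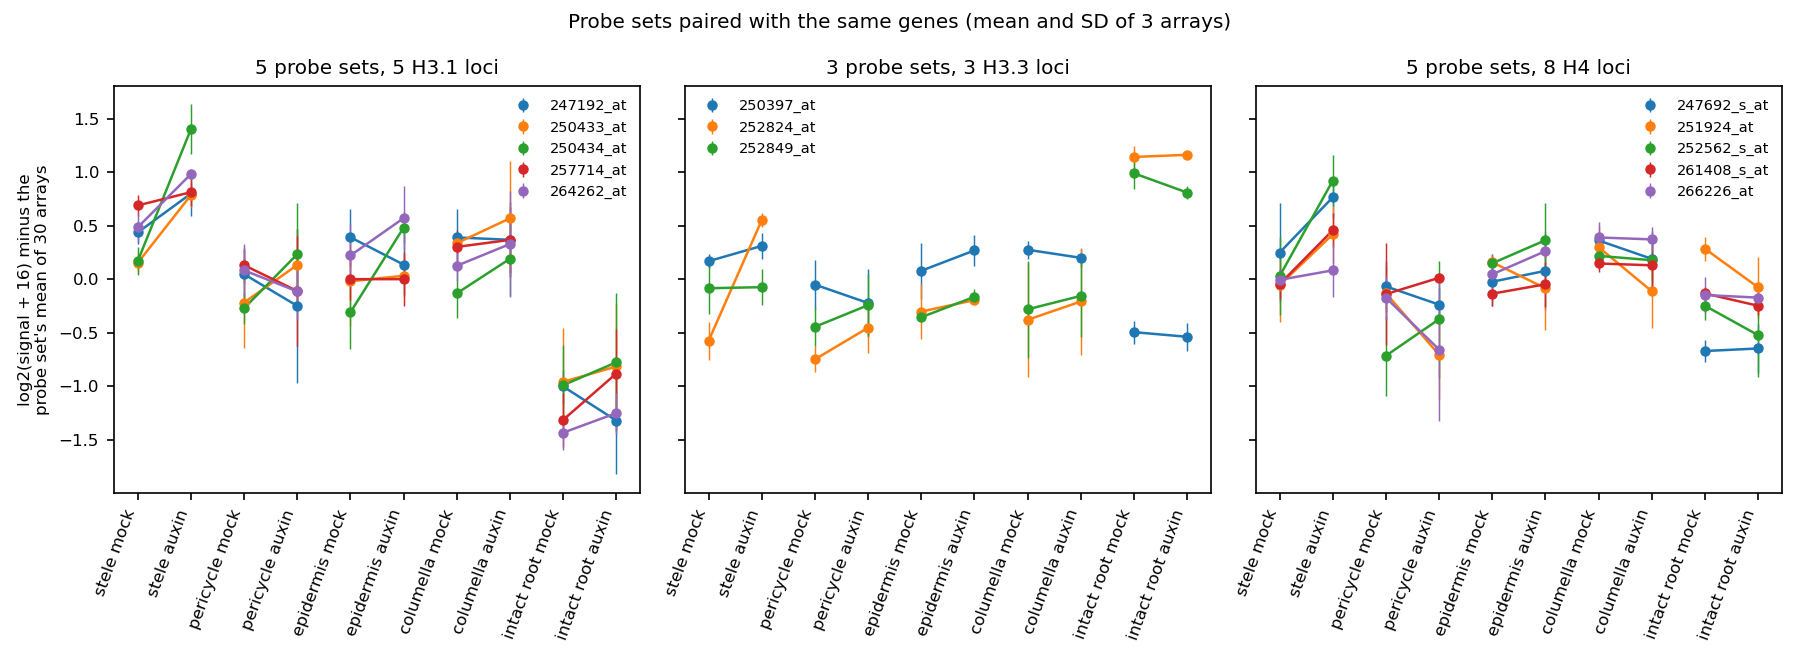
Log2(signal + 16) of the probe sets paired with the same H3.1, H3.3 and H4 loci, each minus its own mean over 30 arrays, as group means with the SD of 3 arrays; lines join mock and auxin of a sample type. Probe sets paired with the same loci part from each other and may detect different genes among them. In the stele the change was 1.23 for 250434_at and 0.12 for 257714_at. In intact roots 250397_at lies below and 252824_at and 252849_at above their means.

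All 5 probe sets of the H4 genes had changes above 0 in the stele, with a median of 0.50, and 2 were called. The signals of 252562_s_at were 1683, 2508 and 2701 in mock and 3752, 5060.0 and 3871 in auxin-treated stele. Auxin arrays were all higher, by 0.89 ± 0.23 (adjusted p = 0.00483), a call lost without stele mock array 1. For 261408_s_at the signals were 2206, 1838 and 2132 in mock and 3044, 2569.9 and 3174 in auxin arrays, also without overlap. Its change of 0.50 ± 0.18 (adjusted p = 0.0363) lost its call when any of the 6 arrays other than auxin array 2 was left out, after centring on the 75th percentile and without the intensity trend. The remaining 3 had changes of 0.52 (247692_s_at), 0.47 (251924_at) and 0.09 (266226_at) and were not called.

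Outside the stele no H4 probe set was called in any sample type. In the pericycle their changes ran in both directions, from -0.57 for 251924_at to 0.34 for 252562_s_at. In the columella all 5 were below 0, between -0.41 and -0.02, and in intact roots they lay between -0.36 and 0.02. Over the 4 sorted tissues 252562_s_at rose by 0.35 ± 0.12 (adjusted p = 0.0148).

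Whether the response of a histone gene differs among the 4 sorted tissues was tested with a moderated F-test on 3 numerator degrees of freedom. It called 1 of 26 histone probe sets, against 3.65% of all probe sets. An unadjusted p under 0.05 was found for 4 of the 26, a count without its share over all probe sets and not read further. The 1 called was HTB4 (adjusted p = 0.0251). Beside its rise in the stele, given above, it had pericycle signals of 1005, 1317 and 1405 in mock and 1422, 1465 and 1254 in auxin arrays. In the epidermis they were 1611, 1852 and 1808 in mock and 1884, 2040.4 and 1770.3 after auxin. The columella gave 2125, 1617 and 2225 in mock and 2306, 1309 and 1682 after auxin. Mock and auxin arrays overlapped in each of these 3 tissues. The response of the stele exceeded the mean of the other 3 by 1.03 ± 0.23 (adjusted p = 3.36e-04 over probe sets past the F-test). That of the columella differed from the mean of the others, which includes the stele, by -0.64 ± 0.23 (adjusted p = 0.0315). Within the columella the change was -0.20 and not called. The F-test call was lost without stele mock array 1, stele auxin array 2 or stele auxin array 3, without the intensity trend and with only the sorted arrays. For the other 25, a difference between the stele and the other tissues was thus not shown. Of the 26, 21 had a stele response above the mean of the other 3, a count given without the share over all probe sets. The median of this difference was 0.43, against 0.05 over all probe sets.

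Intact roots were next compared with the sorted tissues in their response to auxin. The response differed for 2 of 26 histone probe sets, 1 higher and 1 lower in intact roots, against 6.01% and 6.42% of all probe sets (12.4% in all). AT1G06760, whose signals are given above, had a response in intact roots that differed from the average of the sorted tissues by -1.34 ± 0.26 (adjusted p = 4.07e-04). For AT3G53650 intact roots gave 163, 124 and 118 in mock and 173, 149 and 124 in auxin arrays. These overlapped, and the response lay above the average of the sorted tissues by 0.87 ± 0.28 (adjusted p = 0.0361). This second call was lost without intact root mock array 2 or 3 or auxin array 1 or 2. Markers of other cell types also responded differently in intact roots: relative to the sorted tissues the endodermal SGN3 (-1.90) and the cortical AT1G09750 (C1, -1.20) were lower, and the epidermal EXPA7 (2.10) and EXPA18 (2.72) higher. Within intact roots SGN3 and C1 fell after auxin, with changes of -1.28 and -1.49. EXPA7 (0.26) and EXPA18 (-0.09) were not called within intact roots, but fell over the sorted tissues together (-1.84 and -2.81). For LBD16 (-0.16) and BBM (-0.73) the intact response did not differ from the sorted one by a call. The part of any of these cell types in the histone differences was not tested. Sorted and intact samples differed in digestion, in sorting and in the length of exposure to IAA, which cannot be told apart.

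Differences between the tissues before auxin were asked of the mock arrays alone. Among the 4 sorted tissues, mock levels differed for 6 of 26 histone probe sets, against 36.8% of all probe sets. The linker histone gene AT2G30620 had mock signals of 173, 114 and 120.3 in the stele, 87.7, 219 and 171 in the pericycle, 346, 226 and 264 in the epidermis and 529, 217 and 279.5 in the columella. Stele and pericycle arrays overlapped at the low end. The columella reached highest on its mock array 1 alone, the array whose closest match was an epidermis mock array. The F-test gave an adjusted p of 0.00322; relative to the mean of the other 3, the stele was lower (-0.76 ± 0.25, adjusted p = 0.00776) and the columella higher (0.79 ± 0.25, adjusted p = 0.0118).

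Of the H2B genes, 3 of 9 differed among mock tissues, each with the pericycle low. AT2G28720 had mock signals of 3.56, 35.5 and 20.0 in the stele, 25.6, 1.03 and 1.07 in the pericycle, 60.8, 32.6 and 31.4 in the epidermis and 96.7, 55.6 and 75.9 in the columella. The columella arrays were the highest apart from 1 epidermis array, and the pericycle held the 2 lowest. The adjusted p was 8.49e-04, with the pericycle at -1.27 ± 0.33 and the columella at 1.37 ± 0.33 against the mean of the others. Several of its stele and pericycle signals lie near the floor, which limits what these sizes can show. HTB2 mock signals were 718, 729 and 706 in the stele, 229.5, 399 and 382 in the pericycle, 464, 509.5 and 499 in the epidermis and 612, 526 and 538 in the columella. All stele arrays lay above and all pericycle arrays below those of the other tissues (adjusted p = 0.0021), by 0.66 ± 0.19 and -0.80 ± 0.19 against the mean of the others. HTB4, with the signals given above, also differed (adjusted p = 0.0285), the pericycle lying at -0.58 ± 0.16. This call was lost without pericycle mock array 1 or 2 or columella mock array 3, with array weights, without the intensity trend and with only the compared arrays.

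The H4 probe set 252562_s_at was lowest in mock pericycle, at 994, 1489 and 1621. Its mock signals were 2340.1, 2426 and 2586 in the epidermis, 2720.2, 2681 and 2327 in the columella and 1683, 2508 and 2701 in the stele. No pericycle array reached the lowest array of any other tissue; the adjusted p was 0.00478 and the pericycle difference -0.85 ± 0.19, and the call was lost without pericycle mock array 1. For the shared H3 probe set 262979_s_at the pericycle was the highest, at 214, 129 and 360.3, with 1 of its arrays inside the range of the columella (79.6, 152 and 144). Stele signals were 111, 93.1 and 69.0 and epidermis signals 106, 80.1 and 74.2. The adjusted p was 0.0309 and the pericycle difference 1.03 ± 0.30; the call was lost when stele mock array 3, pericycle mock array 1 or 3, or epidermis mock array 2 or 3 was left out, and with a pseudocount of 1. None of the 5 H3.1 and 3 H3.3 probe sets differed among the mock tissues.

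Sorted and intact mock samples were compared last. Of the 26 probe sets, 14 were higher and 6 lower in the sorted tissues, against 30.2% and 32.3% of all probe sets (62.5% in all), and the median difference was 0.62 against -0.01. The classes went different ways. Both H1 genes were lower in sorted cells: AT1G06760, with intact root mock signals of 1821, 2214 and 2627 and a highest mock signal of 716 in sorted tissues, by -2.03 ± 0.19 (adjusted p = 1.02e-11). AT2G30620, at 1079.8, 1189 and 1341 in intact roots, differed by -2.45 ± 0.24 (adjusted p = 4.18e-11). The sorted mock arrays of both genes lay below all intact root mock arrays.

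All 5 H3.1 probe sets were higher in sorted cells, by 0.85 (250434_at) to 1.66 (264262_at). The signals of 264262_at in intact mock roots ran from 57.7 to 75.8, and its lowest mock signal in sorted cells was 187. No sorted mock array reached down to the intact root arrays (adjusted p = 5.87e-10). The H3.3 probe sets disagreed with each other: 252824_at (-1.64 ± 0.17) and 252849_at (-1.28 ± 0.16) were lower in sorted cells, and 250397_at was higher (0.61 ± 0.13, adjusted p = 1.73e-04). For 252824_at the intact root signals were 1705, 1796 and 1554, above every sorted mock array, the highest of which was 884. For 250397_at they were 2046, 2058 and 1802, below every sorted mock array. As these 3 probe sets are paired with the same loci and may detect different ones of them, no direction is given for the H3.3 genes.

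The shared probe set 262979_s_at of AT1G13370 and AT1G75600 was higher in sorted cells by 2.89 ± 0.29 (adjusted p = 1.12e-10). The intact root signals lie near the floor, so the size depends on the pseudocount: the difference was 5.28 with a pseudocount of 1 and 1.49 with 64. In intact roots its mock signals were 4.82, 0.820 and 1.76 and its auxin signals 0.507, 1.43 and 9.31, whereas no sorted array of either treatment lay below 50.8. The own probe set of AT1G75600 was also higher in sorted cells (1.14 ± 0.26, adjusted p = 3.19e-04), from intact root mock signals of 7.27, 6.96 and 7.88.

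Of the H2B genes 5 were higher and 2 lower in sorted cells. AT2G28720 had mock signals of 380.1, 314 and 305 in intact roots and of at most 96.7 in sorted tissues. The difference was -2.97 ± 0.32 (adjusted p = 4.53e-10); it was -3.93 with a pseudocount of 1 and -2.03 with 64. HTB11 was lower in sorted cells too (-0.71), while AT3G09480 (1.73), AT3G53650 (1.59), AT2G37470 (1.30), HTB1 (0.75) and HTB2 (0.63) were higher. Of the H4 probe sets, 247692_s_at was higher (0.80) and the other 4 were not called, with differences of -0.22 to 0.21. All 20 calls held with any 1 of the 15 mock arrays left out. Markers of other tissues moved between sorted and intact samples as well: EXPA7 and EXPA18 summed to 1929.8 to 2161 in intact mock roots and to 97.0 to 708 in sorted mock tissues. The 3 of 6 endodermal and cortical markers with a probe set summed to 1138 to 1279.5 in intact mock roots and to 135 to 792 in sorted mock tissues. SGN3 carried most of this gap, with a mean of 880 in intact mock roots and of at most 194 in a sorted mock tissue. C1 averaged 318 in intact mock roots, 361 in mock columella and 299 in mock pericycle, and CO2 at most 13.1 in any mock group. The part of epidermal, endodermal and cortical cells in the histone differences was not tested.

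**Figure D5:**
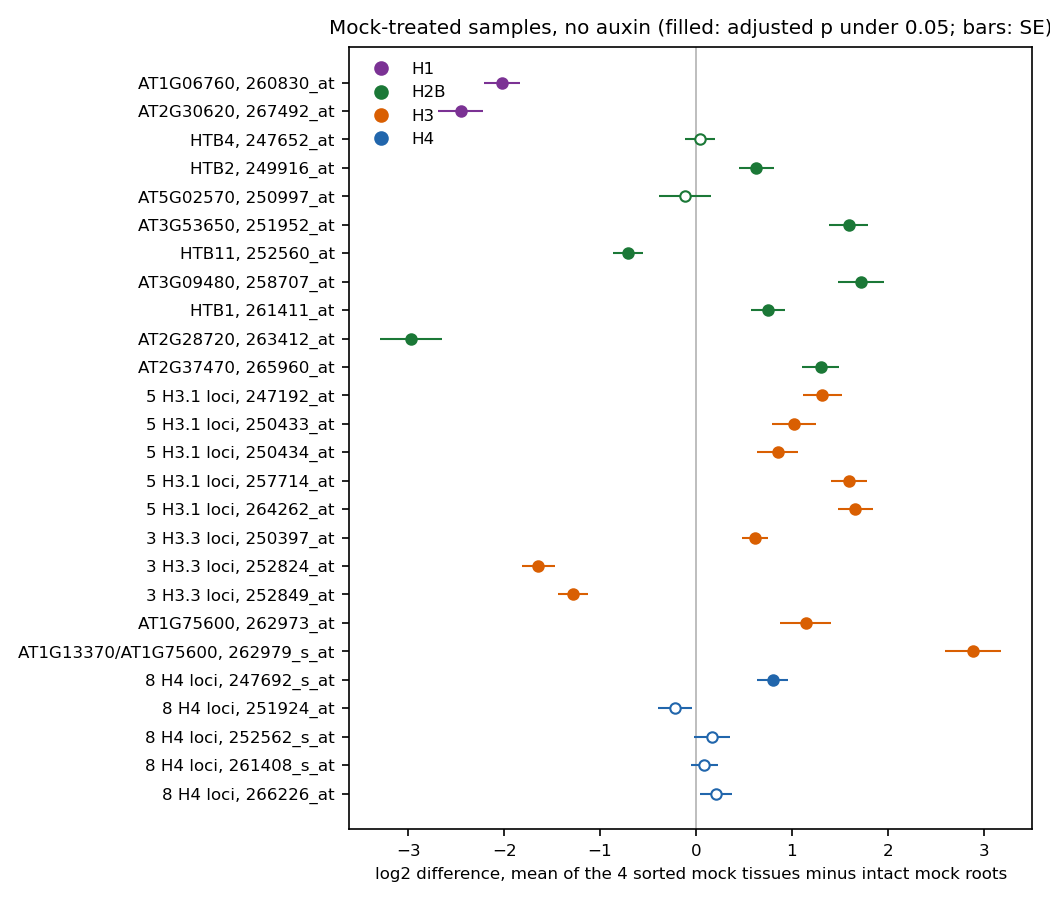
Log2 difference between the mean of the 4 sorted mock tissues and intact mock roots for the 26 tested histone probe sets, colored by class, filled where called, with SE bars. The H1 genes lie at -2.03 and -2.45, the 5 H3.1 probe sets between 0.85 and 1.66, and the 3 H3.3 probe sets on both sides of 0.

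Genes of the cell cycle, among them inhibitors of it, and histone chaperones were taken from 4 lists with 61 genes. The lists were DNA replication, mitosis, inhibitors of cyclin-dependent kinases and histone chaperones, and 7 of the genes had a named and tested probe set. In the stele 4 of the 7, including the inhibitor SIM, rose and none fell, where 14.2% of all probe sets rose and 11.5% fell. None of the 7 was called in the pericycle, epidermis, columella or intact roots, where 13.7%, 14%, 8.05% and 13.7% of all were. The F-test of the response among the sorted tissues called none of the 7 (lowest adjusted p = 0.067, for MCM7). A difference between the stele and the other tissues was thus not shown. ASF1B changed by 0.82 ± 0.30 in the columella (limma adjusted p = 0.0884). Over the sorted tissues together 2 of the 7, SIM (0.41) and ASF1B (0.44), were called higher, against 24.7% of all probe sets. MCM7, a subunit of the replicative helicase, had stele signals of 290.3, 334 and 210.4 in mock and 792, 515 and 461 in auxin arrays. Its auxin arrays were all higher, by 1.02 ± 0.31 (adjusted p = 0.0129). ASF1B, a chaperone that hands H3 and H4 to the assembly machinery, gave 182, 250.0 and 212 in mock and 457, 381 and 339 in auxin-treated stele. The groups were apart here too, with a change of 0.83 ± 0.30 (adjusted p = 0.0381).

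AUR2, a mitotic kinase that phosphorylates H3, had stele signals of 106, 121 and 143 in mock and 189, 280.0 and 291 in auxin arrays, a change of 0.94 ± 0.30 (adjusted p = 0.0192). SIM, an inhibitor of cyclin-dependent kinases, gave 140.2, 109 and 132 in mock and 271, 180.0 and 265 after auxin, a change of 0.82 ± 0.28 (adjusted p = 0.0264). In both genes the auxin arrays lay above the mock arrays. AUR1 (0.82 ± 0.32, adjusted p = 0.0528), the DNA polymerase subunit ICU2 (0.40 ± 0.31, adjusted p = 0.365) and the chaperone ASF1A (-0.18 ± 0.29, adjusted p = 0.688) were not called. None of the 4 stele calls held throughout when each of the 6 arrays was left out in turn: that of MCM7 was lost without mock array 3 or auxin array 1, that of SIM without mock array 2 or auxin array 1 or 3, that of AUR2 without mock array 1 or auxin array 2 or 3, and that of ASF1B without mock array 1 or 3 or auxin array 1 or 2. The ASF1B call was lost as well with a pseudocount of 1 and after centring on the 75th percentile. In the mock comparison of sorted with intact samples, MCM7 (1.80), ICU2 (1.21), AUR1 (1.19) and ASF1B (0.96) were higher in sorted cells, SIM (-2.43) and ASF1A (-0.57) lower, and AUR2 (0.51) was not called; the call of ASF1A was lost without intact root mock array 2 or 3 and after quantile normalization or centring on the 75th percentile. BBM, which alone of 4 stem cell markers was named, had signals of 54.3 to 127 in mock and 164 to 273 in auxin-treated stele. Its rise there (1.28 ± 0.41, adjusted p = 0.0195) lost its call with a pseudocount of 1 and without stele mock array 1 or 3 or auxin array 2 or 3. LBD16 had signals of 33.2 to 83.7 in mock and 349.9 to 679 in auxin-treated stele, and it rose in all 5 sample types, by 1.49 to 2.61. The epidermal EXPA7 (-1.06, adjusted p = 0.0209) and EXPA18 (-2.12, adjusted p = 3.28e-05) fell in the stele, as in the other 3 sorted tissues; the stele call of EXPA7 was lost without mock array 1 or auxin array 2. What part a shift in cell types has in the stele result was not tested.

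The remaining 4 histone probe sets were too dim to be tested. HIS1-3 (AT2G18050), a linker histone known to be induced by drought, had signals of at most 42.6 on the 30 arrays with a median of 15.4. MGH3 (AT1G19890), the H3 of male gametes, reached at most 28.8 with a median of 5.75. The H2B locus AT1G08170 reached 51.0 on 1 array and had a median of 8.63. The own probe set of AT1G13370, 259387_at, had a median of 10.7 over 30 arrays and its highest signals on 1 array of auxin-treated stele (73.9) and 1 of auxin-treated pericycle (67.6).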

How the data were processed

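Signals of 22810 probe sets on 30 single-colour arrays were used. The deposited intensities are on a linear scale. Per the submitters' processing notes the tool was MAS5; the sources used here name neither its version nor a chip definition or genome build. Per the labels' protocols, RNA was amplified and labelled with biotin before hybridisation. The values had been scaled by the authors to a mean of 250.0 per array with 2% of probe sets trimmed at each end, as the values show.

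Gene names come from the platform annotation supplied with the series, which can be old: 13513 have 1 gene, 503 have several and 8730 are unnamed here; 64 controls were left out. Symbols were updated through the RefSeq table of TAIR10.1, used for names only. Common names H1.1 and H1.2 are general knowledge.

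Signals were analysed as log2(signal + 16) with limma 3.58.1 under R 4.3.3, in a model of 10 group means with empirical Bayes moderation with an intensity trend and 20 residual degrees of freedom (median residual SD 0.34). Tests were two-sided, with Benjamini-Hochberg adjustment over 17000 probe sets, or over those past the F-test for single tissues. No score or test was computed over the histone list. The procedure was tested on simulated data. The number of arrays limits the precision. Replicate numbers were not used as a block in the main fit. Same-numbered mock and auxin arrays deviated together at r = -0.01 to 0.38, over 0.1 in 6 of 15 pairs. Differently numbered ones of a sample type did so at r = -0.27 to 0.18, and whether the numbers pair the samples was not settled.

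The histone loci, the companion lists and the markers were chosen with earlier results of these data known. By rule, values on every array are given for, per class, the smallest p in the average response and in the mock F-test; in each auxin response, the 3 called probe sets with the largest changes; and the 5 called with the smallest p in each F-test and contrast with intact roots. Values of the other called probe sets and of the shared H3 and H4 probe sets were added after they were seen. Alternatives covered the pseudocount, filter, normalization, array weights, trend, replicate block, sample subset, probe sets of 1 gene and each array left out. Plots were made in Python 3.11.15 (matplotlib 3.10.9).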

Additional observations from a re-analysis of the deposited data

Results flagged for a closer look

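Responses that differed between sample types by a test of the difference were those of HTB4 among the 4 sorted tissues (F-test adjusted p = 0.0251), and of AT1G06760 (-1.34) and AT3G53650 (0.87) in intact roots relative to the sorted tissues. In 3 histone genes all auxin arrays lay above all mock arrays in one sample type and below them in another (3 of 26 probe sets, against 10.5% of all probe sets, a share near the background); these pairs of sample types were not tested against each other. AT1G06760 was higher after auxin in stele and epidermis cells and lower in intact roots, with the log2 changes apart by 1.69 and 1.33. AT2G30620 was higher in the stele and lower in intact roots, 1.44 apart. HTB1 was higher in the stele and lower in the epidermis, 1.00 apart. A signal outside the tested data was that of 259387_at, the own probe set of AT1G13370, which averaged 50.9 in auxin-treated stele (37.0, 41.8 and 73.9) against 1.97, 26.9 and 2.51 on the mock arrays. In the pericycle it gave 67.6, 17.1 and 37.1 after auxin and 28.0, 3.64 and 1.54 in mock, which overlapped. It exceeded the 40th percentile on 2 of 30 arrays and was not tested.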

How the results depend on the processing

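Across the alternatives no called histone probe set changed direction, and counts are of 26 unless stated. Shares over all probe sets are given in this section only where stated, so the other counts are not read against the background. In the stele 11 were called; with only probe sets of 1 gene 7 of 12 were, against 24.1% of all such probe sets. In the pericycle 2 were called, and 1 without the intensity trend or with only the compared arrays. In the epidermis 1 was called; the count was 0 with a pseudocount of 1, no filter (of 30), quantile normalization, no trend or only probe sets of 1 gene (of 12), 2 after centring on the 75th percentile or with only the compared arrays, and 3 with array weights, which did not include 250434_at. In the columella 1 was called with array weights. In intact roots 1 was called with a pseudocount of 64, a filter at the 60th percentile (of 24), quantile normalization, centring on the 75th percentile or array weights, and 2 with only the compared arrays. The F-test of the response called 3 with array weights and 0 without the trend or with only the compared arrays. Array weights gave 5 responses that differed between intact and sorted samples, and with only probe sets of 1 gene 10 of 12 mock levels differed between them. The cause of these shifts was not tested, apart from the smaller numbers of probe sets tested.

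The replicate number was also used as a block, although whether the numbers pair the samples was not settled. With it 4 probe sets were called in the pericycle, 1 in intact roots and 2 by the F-test of the response. In the epidermis 3 were called, those of AT1G06760, AT3G53650 and AT2G37470 (250434_at not among them), the same as with array weights. Every other count of calls lay within 1.5 times of the value without the block.

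With 1 array left out, calls ranged from 5 to 10 in the stele, 1 to 4 in the pericycle, 0 to 1 in the epidermis and 0 to 1 in intact roots, and stayed at 0 in the columella. They ranged from 8 to 11 for the average response, 0 to 2 for the F-test of the response, 1 to 3 for intact against sorted responses and 3 to 6 for the mock F-test, and stayed at 20 for sorted against intact mock levels. Of 780 such checks of single calls 68 lost the call, and of 584 under the other alternatives 20 did. Leaving out probe sets that can detect several transcripts (suffix s_at or x_at), an alternative chosen after seeing the data, gave 9 of 22 in the stele.

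Centring on the 75th percentile moved the median of all probe sets between sorted and intact mock samples from -0.01 to 0.12, and the histone median from 0.62 to 0.75. For the stele response, quantile normalization moved the median of all probe sets from 0.11 to 0.02 and the histone split from 9 higher and 2 lower to 10 and 3. Probe sets whose mock signals lie near the floor, such as 262973_at, limit what their log2 changes can show.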
